A study of Mus musculus with 5 samples.

Results

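The 3 E protein genes Tcf3, Tcf4 and Tcf12 and the 3 inhibitor genes Id1, Id2 and Id3 were examined for EBF1 sites in mouse pro-B cells. These 6 genes were listed by name, out of 21521 protein-coding genes on the chromosomes that held a site. Each carried at least 1 site, and together they held 13 of the 7494 sites in the deposited list. With a limit of 20 kb, 5 of the 6 carried a site, and 4 did when only sites within 10 kb counted or when non-coding genes also competed for sites. By the rule used, a site belonged to a gene if its centre lay inside the gene, or if it lay in no protein-coding gene and this one was the nearest within 100 kb. The series has 5 ChIP-seq libraries of pro-B cells, which are early precursors of B lymphocytes, and 1 of them, anti-EBF1 ChIP in cells with genotype EBF1 wt, came with the list used here. All libraries started from Ebf1-/- fetal liver cells that received EBF1 wt or YmA by transduction, so the EBF1 that was precipitated came from the transduced gene. The other 4 libraries (anti-EBF1 in EBF1 YmA, anti-Brg1 in EBF1 YmA, and an input for each antibody in EBF1 wt) were not analysed here.

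E proteins are basic helix-loop-helix factors that bind DNA in pairs at E-boxes, short motifs with the letters CANNTG. Id proteins have the helix-loop-helix through which such pairs form but lack the basic part that touches DNA, so an E protein paired with an Id protein cannot bind. In early B-cell development, E proteins act upstream of EBF1 and beside it on shared target genes, and Id proteins oppose them. EBF1 itself binds a palindrome whose core reads CCCNNGGG, with a T before it and an A after it in the full form.

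The list gives each site's position, always 300 bp wide, and 1 of 3 classes set by the authors, which carry the names CTD-ind, YmA-ind and YmA-dep. The sources used here do not say how sites were put into classes, so the names serve as labels only. There is 1 library and no score, height or read count per site. Nothing below has a replicate, depth is unknown, and no test between genes was made. All 4213 protein-coding genes with a site made up 19.6% of the 21521, and that share is the background for counts under the 100 kb rule. For the 20 kb, 10 kb and non-coding alternatives, no share over all genes is given. The share also differed with gene length. Among genes within a factor of 2 of each length it was 37.4% for Tcf4, 36.9% for Tcf12 and 21.4% for Tcf3. It was 3.49% for Id1, 10.0% for Id2 and 4.99% for Id3.

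Tcf3 and Id2 had the most sites, 4 each, and 1.56% of all protein-coding genes had at least 4. The count of Tcf3 was the same with a limit of 20 kb, within 10 kb and with non-coding genes competing, while that of Id2 was 1 in each. Tcf4 had 2 sites. Tcf12, Id1 and Id3 had 1 each, as did 2754 protein-coding genes. The E protein genes thus held 7 sites and the Id genes 6. The sites of the E protein genes lay mostly inside the genes (5 of 7), those of the Id genes mostly outside (5 of 6). A site inside the gene body was found at Tcf3, Tcf4 and Id1, against 12.9% of all protein-coding genes. Over all 7082 sites assigned to a gene, 59.6% were inside it. The E protein genes are longer (24.4 to 345 kb) than the Id genes (1.16 to 2.29 kb), and the part of length in this contrast was not tested.

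**Figure D1:**
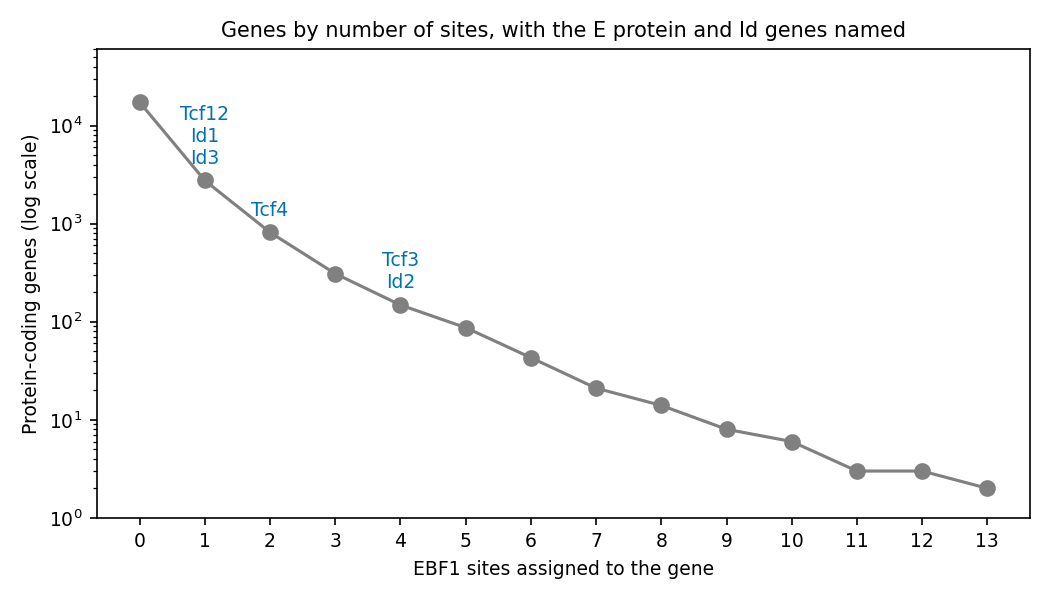
Number of protein-coding genes (vertical axis, log scale) with each number of assigned EBF1 sites (horizontal axis), with the 6 genes named above their point. Tcf3 and Id2 stand at 4 sites, Tcf4 at 2, and Tcf12, Id1 and Id3 at 1, while 17308 genes stand at 0.

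By class, the 13 sites were 6 CTD-ind (46.2%, exact 95% binomial interval 19.2 to 74.9%), 6 YmA-ind (46.2%) and 1 YmA-dep (7.69%, interval 0.195 to 36.0%). In the whole list these shares were 34.0%, 54.1% and 11.9%, each inside the interval of the 6 genes. The intervals cover counting error only and treat sites as independent, although sites of 1 gene share a locus. The E protein genes had 4 CTD-ind, 2 YmA-ind and 1 YmA-dep sites, and the Id genes had 2 CTD-ind and 4 YmA-ind. A CTD-ind site was found at 5 of the 6 genes, all but Id1, against 9.32% of all protein-coding genes. A YmA-ind site was found at Tcf3, Id1 and Id2, against 12.2%, and the YmA-dep site at Tcf3, against 3.26%.

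**Figure D2:**
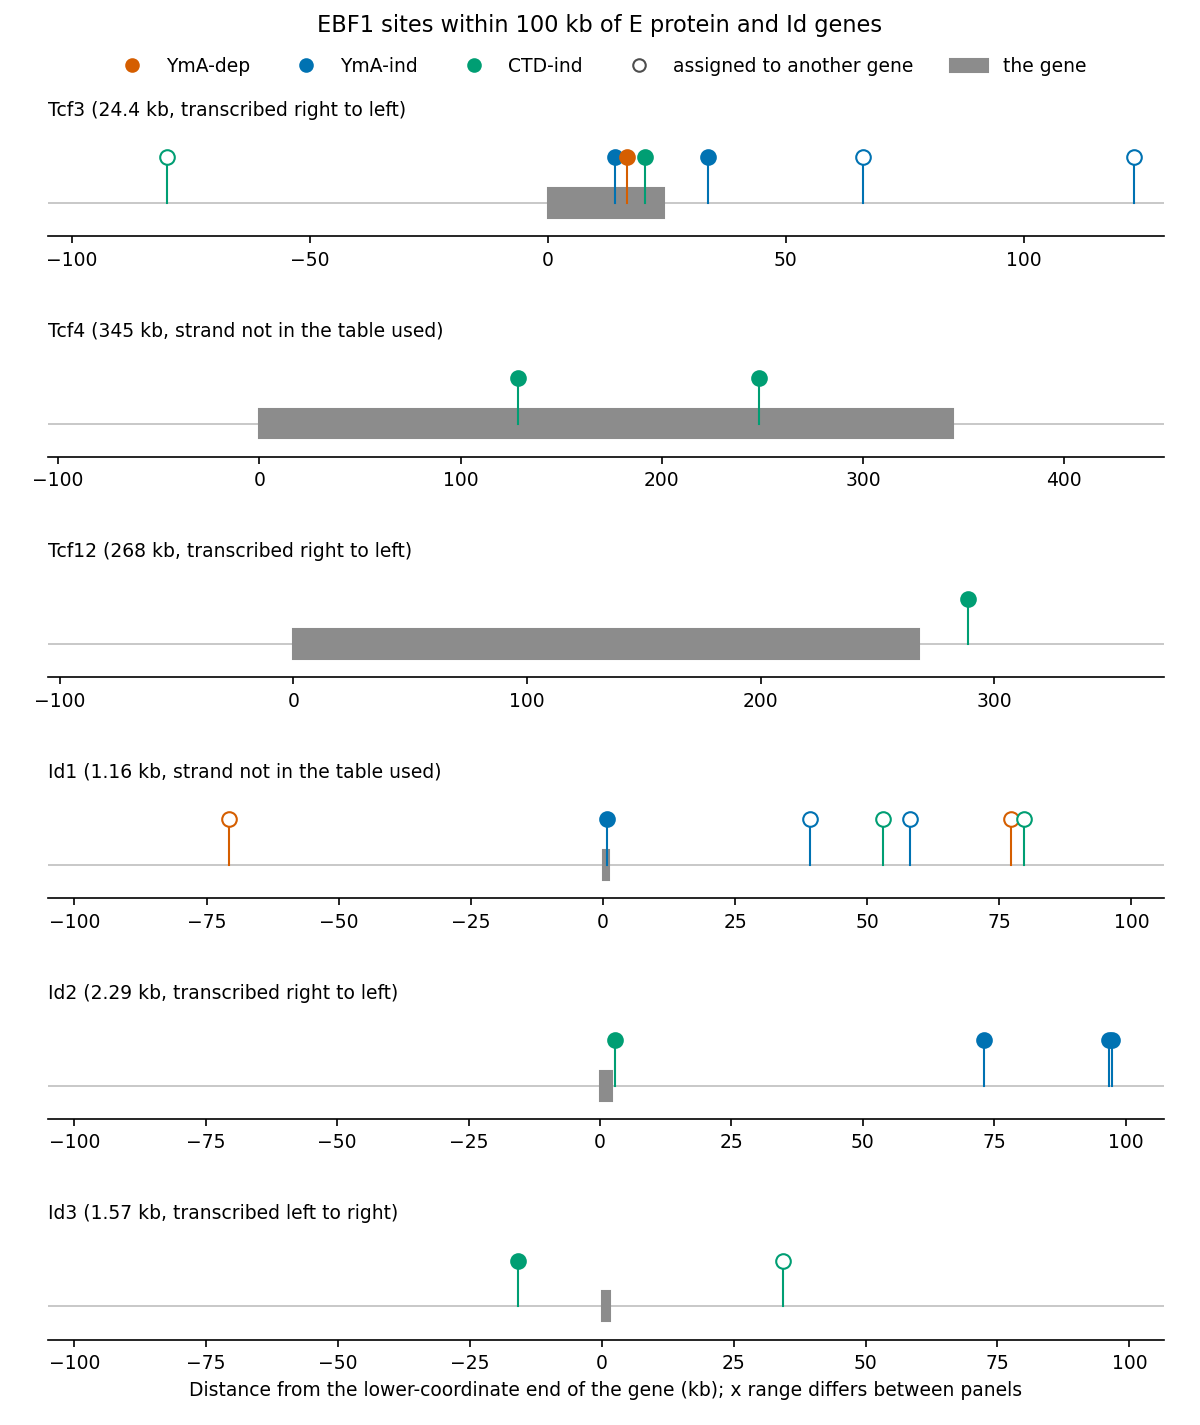
EBF1 sites (dots on stems, coloured by class) within 100 kb of each gene (grey bar), against distance in kb from the gene's lower-coordinate end. Filled dots are sites assigned to the named gene and open dots sites assigned to another gene. At Tcf3 and Tcf4 most filled dots stand on the gene, while at Id2 all 4 stand on its upstream side, 3 of them over 70 kb away.

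Tcf3 encodes E12 and E47, the splice forms known together as E2A, which are needed for B-lineage commitment. The gene (NCBI gene 21423) spans 80409541 to 80433976 on chromosome 10 of GRCm38, 24.4 kb on the minus strand. It held a site of every class within its body. From the upstream end inward, a CTD-ind site (80429731 to 80430030) was centred 4.10 kb inside the gene. A YmA-dep site (80426098 to 80426397) followed at 7.73 kb and a YmA-ind site (80423590 to 80423889) at 10.2 kb.

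These 3 sites were spaced by 3.63 and 2.51 kb and formed a run of neighbours with gaps under 12.5 kb, as 15.8% of assigned sites did in runs of 3 or more. All 3 sat in the upstream part of the gene, and the remaining 14.2 kb towards its downstream end held none. Sites of all 3 classes inside 1 gene occurred in 65 protein-coding genes, 0.302% of them. Only a gene with at least 3 sites inside can hold all 3 classes, and the share among such genes was not counted. The fourth Tcf3 site, YmA-ind (80443044 to 80443343), was centred 9.22 kb upstream. Exons are not in the table used, so exonic and intronic positions were not separated here.

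Sites assigned to other genes also lay near Tcf3. Its nearest neighbour on the downstream side, Uqcr11, is 2.72 kb away, and no site lay between them. On the upstream side, 60.9 kb separate Tcf3 from Onecut3. That space held 2 sites, the one at 9.22 kb and a YmA-ind site 41.8 kb from Tcf3 that is nearer to Onecut3. Within 100 kb of Tcf3 lay 7 sites in all, or 31.2 per Mb of that window, against 2.83 per Mb along chromosome 10. The window includes the sites of Tcf3 itself, and no density over the windows of all genes is given. The 3 assigned elsewhere belonged to Pcsk4 (CTD-ind, 80.0 kb away), Onecut3 and Atp8b3 (YmA-ind, 98.6 kb). The 24.4 kb body of Tcf3 carried 3 sites. Of the 7739 genes within a factor of 2 of its length, 14.0% carried any, and the share with 3 or more was not counted.

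Tcf4 encodes E2-2, the E protein best known for plasmacytoid dendritic cells. The gene (NCBI gene 21413) is the longest of the 6, spanning 69343429 to 69687967 on chromosome 18, 345 kb. Both its sites were CTD-ind and lay deep inside the gene. One (69472036 to 69472335) was centred 129 kb from the lower end and 216 kb from the upper end. The other (69591801 to 69592100) was 249 kb from the lower end and 96.0 kb from the upper end, and the spacing between them was 120 kb. CTD-ind sites assigned to genes had a median distance to the nearest gene end of 5.18 kb, over genes of all lengths. Both Tcf4 sites were farther from the ends than this. A gene of 345 kb has room for such distances, no value for genes of like length was computed, and the part of length was not tested.

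No further site lay within 300 kb of Tcf4. It stands alone in its region: the next protein-coding genes are Mc2r at 914 kb and Ccdc68 at 237 kb, with 1 site in the first space and 0 in the second. At the density of chromosome 18 those spaces would hold 2.07 and 0.536 sites. Of the 1083 genes within a factor of 2 of the length of Tcf4, 33.8% had a site inside.

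Tcf12 encodes HEB, the E protein that pairs with E2A in early lymphocytes. The gene (NCBI gene 21406) spans 71844252 to 72111893 on chromosome 9, 268 kb on the minus strand. Its 1 site, CTD-ind (72132997 to 72133296), was centred 21.3 kb upstream, and 0 sites lay inside. The next site on the chromosome was 294 kb away. Of the 1470 genes within a factor of 2 of its length, 32.4% had a site inside, so a gene of this size without one was common. The window of 100 kb on each side of Tcf12 held 2.14 sites per Mb, below the 3.20 per Mb of chromosome 9. In the other 5 genes' windows the density was 1.62 to 11.0 times that of the chromosome. Each window includes the gene's own sites, which raises its density. No density over the windows of all genes is given, so nothing is read from these ratios.

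Among the inhibitors, Id1 was the only gene with a site inside it. Id1 (NCBI gene 15901) spans 152736251 to 152737410 on chromosome 2, 1.16 kb. Its YmA-ind site (152736958 to 152737257) lay wholly within the gene, centred 856.5 bp from the lower end and 302.5 bp from the upper end. A site inside a gene this short was rare: 21 of the 2465 genes within a factor of 2 of its length had one (0.852%).

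The spaces between Id1 and its neighbours, H13 at 27.6 kb and Cox4i2 at 16.5 kb, held 0 sites. The window of 100 kb around Id1 held 7 sites (34.8 per Mb, against 3.50 per Mb on chromosome 2). No density over the windows of all genes is given for comparison. Of the 7, 6 lay beyond those spaces and were assigned to other genes. Of the 6, 5 belonged to Bcl2l1, which encodes the survival protein Bcl-xL, at 38.1 to 78.6 kb from Id1. The remaining one, YmA-dep, was assigned to H13 at 70.7 kb.

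Id2 restrains B-cell and favours innate lymphoid and natural killer cell development. The gene (NCBI gene 15902) spans 25093799 to 25096092 on chromosome 12, 2.29 kb on the minus strand. All 4 of its sites lay upstream and none inside. A CTD-ind site (25096581 to 25096880) was centred 639 bp from the gene, with its near edge 489 bp before the start. The other 3, all YmA-ind, were distal. One (25166664 to 25166963) was 70.7 kb away, and a pair (25190526 to 25190825 and 25191088 to 25191387) was 94.6 and 95.1 kb away with only 562 bp between centres.

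Id2 borders a wide space without protein-coding genes: Rnf144a, the next one upstream, is 1211 kb away. That space held 6 sites, against 2.98 at the density of chromosome 12, and 4 of the 6 were those of Id2. The 100 kb limit divides this group. The pair at 94.6 and 95.1 kb was just inside it, and a YmA-ind site 113 kb upstream (25208894 to 25209193) was just outside. On the downstream side the 30.6 kb to Kidins220 held 0 sites. The distal YmA-ind sites, including the one beyond the limit, lay in the long non-coding RNA gene Gm36287, and 2 of these 4 also lay in shorter ones, Gm36496 and Gm36441.

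The distal pair flanked the start of Gm36496, and the window of 300 bases around that start (250 before, 50 after) is shown because it holds the only bases of any of the 13 sites in the promoter table used here. The sequence is from RefSeq, chr12:25190795-25191094 of GRCm38.p6, minus strand, and capitals mark the bases that the 2 sites cover. The first 7 bases belong to the site at 95.1 kb and the last 31 to the site at 94.6 kb.
Gm36496: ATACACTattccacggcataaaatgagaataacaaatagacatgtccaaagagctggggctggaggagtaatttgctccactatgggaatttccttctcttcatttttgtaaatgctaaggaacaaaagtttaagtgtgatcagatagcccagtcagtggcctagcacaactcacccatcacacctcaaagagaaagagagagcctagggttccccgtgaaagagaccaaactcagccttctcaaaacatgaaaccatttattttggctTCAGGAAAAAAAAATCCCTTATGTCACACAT
Neither the EBF palindrome, its core CCCNNGGG nor an E-box CANNTG was found in this window, searched on both strands. Most bases of the 2 sites lie outside the window, and no site was searched as a whole, since site sequences were not available. The ETS core AGGAA, a motif bound by factors of the PU.1 family, matched 3 times, 1 of them in the covered part, and 66.7% of the 32851 windows in the table hold it. Of the 13 sites, the 2 of this pair were the only ones to overlap a promoter window, and over the sites on chromosomes with windows 8.03% did.

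Id3 is induced by antigen receptor signals and restrains E2A in lymphocytes. The gene (NCBI gene 15903) spans 136143822 to 136145392 on chromosome 4, 1.57 kb on the plus strand. Its 1 site, CTD-ind (136127786 to 136128085), was centred 15.9 kb upstream. The 90.4 kb between Id3 and its upstream neighbour Rpl11 held this site alone, and the 26.9 kb to E2f2 downstream held 0. A second CTD-ind site stood 32.7 kb from Id3, inside E2f2, a gene of the cell cycle, and was assigned there. Within 100 kb of Id3 lay these 2 sites, both CTD-ind.

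The promoters of Id2, Id3 and Tcf3 are shown next, to set the gene with a site close to its start beside 2 genes whose nearest site was kilobases away. Each line gives the 250 bases before the start, 5′ to 3′ along the gene, from RefSeq (GRCm38.p6). They are chr12:25096093-25096342 (minus strand) for Id2, chr4:136143572-136143821 (plus) for Id3 and chr10:80433636-80433885 (minus) for Tcf3. The Tcf3 window lies before the start that the promoter table gives, 80433635, and inside the gene span above, which reaches 80433976. Capitals mark matches to the EBF core CCCNNGGG and to the E-box CANNTG.
Id2: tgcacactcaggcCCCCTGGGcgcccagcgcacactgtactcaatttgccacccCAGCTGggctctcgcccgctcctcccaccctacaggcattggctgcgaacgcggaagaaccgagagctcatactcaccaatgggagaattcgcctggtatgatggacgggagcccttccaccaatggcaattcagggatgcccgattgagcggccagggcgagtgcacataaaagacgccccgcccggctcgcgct
Id3: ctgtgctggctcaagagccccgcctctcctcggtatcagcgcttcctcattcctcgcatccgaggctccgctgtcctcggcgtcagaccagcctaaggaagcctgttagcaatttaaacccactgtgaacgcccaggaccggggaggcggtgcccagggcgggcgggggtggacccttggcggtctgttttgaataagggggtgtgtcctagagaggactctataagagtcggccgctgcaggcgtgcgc
Tcf3: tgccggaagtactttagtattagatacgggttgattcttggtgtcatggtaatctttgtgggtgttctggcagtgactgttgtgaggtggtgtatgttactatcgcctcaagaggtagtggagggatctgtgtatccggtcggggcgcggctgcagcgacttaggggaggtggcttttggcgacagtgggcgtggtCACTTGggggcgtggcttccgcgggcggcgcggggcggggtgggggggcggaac
The Id2 promoter held 1 EBF core, CCCCTGGG, which begins 237 bp before the start, and 1 E-box, CAGCTG, at 196 bp before it. The near edge of the CTD-ind site lay a further 238 bp beyond the window, so the core is not inside the site. The Tcf3 promoter held 1 E-box, CACTTG, at 54 bp before the start, and no EBF core. The Id3 promoter held neither.

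Promoter windows of 300 bases were in the table for 4 of the 6 genes, 6 windows in all, since Tcf12 had 3. Of these 4 genes, Id2 alone held the EBF core (13.7% of all windows hold it), and none held the full palindrome (0.904%), also with 1 mismatch allowed (16.5%). An E-box was found at Tcf3, Tcf12 and Id2 (72.3% of windows). The form CAGCTG was found at Id2 and at the outermost start of Tcf12, 240 bp before it, and 16.3% of windows hold it. These are matches of letters, and with 4 genes no difference from the shares over all windows is read from them.

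**Figure D3:**
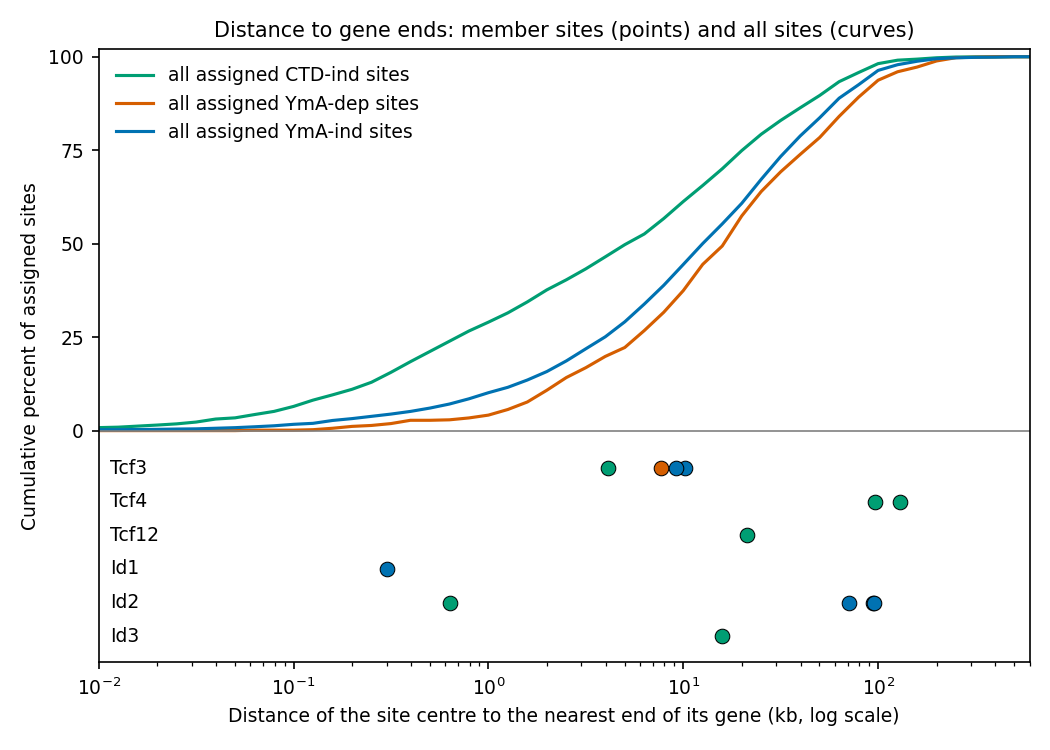
Distance in kb (log scale) of each site's centre to the nearest end of its gene. Points are the 13 sites by gene and class, in rows under the axis, and curves are the cumulative percent of all assigned sites of each class. Id1 and Id2 each have 1 point under 1 kb, and the points of Tcf4 and the 3 distal points of Id2 lie between 70.7 and 129 kb.

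The 13 sites lay 302.5 bp to 129 kb from the nearest end of their gene, with a median of 15.9 kb, against 10.2 kb over all assigned sites. By group the median was 10.2 kb for the E protein genes and 43.3 kb for the Id genes. The Id value rests on the distal Id2 sites at 70.7 to 95.1 kb, which a 20 kb limit leaves out. The other Id sites lay 302.5 bp, 639 bp and 15.9 kb from an end, so this contrast depends on the limit. Within 1 kb of a gene end were 2 of the 13, at Id1 and Id2, and over all assigned sites 16.1% were. The 7 sites outside their gene all belonged to genes with a strand in the table, and all 7 lay upstream. Over all sites outside their gene with a strand in the table, 1348 of 2192 (61.5%) lay upstream, with 58.7% of the YmA-ind and 67.0% of the CTD-ind ones. Of the 7, 4 were YmA-ind and 3 CTD-ind. Since 4 of the 7 are at Id2, this is a description of 4 genes: Tcf3, Tcf12, Id2 and Id3. At all 4 the space to the next protein-coding gene was wider upstream than downstream. It was 60.9 against 2.72 kb at Tcf3 and 163 against 35.0 kb at Tcf12. At Id2 it was 1211 against 30.6 kb, and at Id3 90.4 against 26.9 kb. A wider space leaves more room for sites, and its part in the 7 of 7 was not tested.

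Genes with exactly the make-up of sites of Tcf3 or Id2 were few. Only 148 protein-coding genes had 4 sites, and how many exact matches other such genes have was not counted. Counting sites by class and by inside or outside, 3 other protein-coding genes had exactly the pattern of Tcf3 (Euclidean distance 0 over the 6 counts), namely Zfp957, Ptp4a3 and Cblb. The pattern of Id2, with 1 CTD-ind and 3 YmA-ind sites, all outside, was shared by 6 genes. Closest to it in length were Zfp36l2, Cxcr4 and Socs3, which are 4.02 to 4.26 kb long.

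The wider E protein and Id network was read from 4 lists of genes. Of 10 genes for other helix-loop-helix partners, 4 had a site, with a median of 0 sites per gene, the same as over all protein-coding genes. Bhlhe40, a repressor of the same superfamily, had 4 sites, 3 of them CTD-ind, the nearest centred 482 bp from a gene end. Lyl1, a blood-cell partner of E proteins, had 2 YmA-ind sites, 1 of them 70.5 bp from an end. Bhlhe41 and Tal2 had 1 each. Id4, the fourth Id gene, had 0 sites, as had Tal1, Msc, Ascl2, Myod1 and Ptf1a.

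Of 13 cofactor genes, 5 had a site: Cbfa2t3 and Lmo2 with 2 each, and Kat2b, Ep300 and Ssbp2 with 1 each. Cbfa2t3 encodes a corepressor of the ETO family that binds E proteins, and its nearest site, YmA-ind, was 1.56 kb from a gene end. Lmo2, which bridges E protein pairs to other factors, had its nearest site 21.1 kb away. Of the 7 sites at cofactor genes, 0 were YmA-dep, 2 CTD-ind and 5 YmA-ind, and over all assigned sites these shares were 11.2%, 35.1% and 53.6%. Lmo1, Lmo4, Ldb1, Ldb2, Runx1t1, Cbfa2t2, Crebbp and Ssbp3 had 0 sites assigned, although 1 site lay within 10 kb of Cbfa2t2 and went to another gene.

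Of 13 genes that regulate the level of Id or E proteins, 7 had a site. Smad6, an inhibitor of the BMP signals that induce Id genes, had a CTD-ind site 460 bp from an end and a YmA-dep site. Egr1, which induces Id3 after receptor signals, had a CTD-ind site 1.37 kb from an end and a YmA-ind site. Acvr1, a BMP-type receptor, had 2 sites. The ubiquitin ligase gene Huwe1 had a YmA-ind site inside, and Smad1, which carries BMP signals to the nucleus, had a YmA-dep site 9.01 kb from an end. Smad7 and Usp1 had 1 site each. The BMP receptor genes Bmpr1a and Bmpr2 and the signal carriers Smad4 and Smad5 had 0 sites assigned, as had Skp2 and Stub1. Within 10 kb of Skp2 lay 1 site that went to another gene. Of the 10 sites at the 7 genes, 4 were YmA-dep, at Smad1, Smad6, Smad7 and Acvr1, against 11.2% of all assigned sites, and nothing is read from so few.

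Of 19 textbook E protein targets, 14 had a site (73.7%), with a median of 1 site per gene and 54 sites in all. Most are B-lineage genes, and the list was drawn up with earlier results on these sites known, so its share is a description only. Foxo1 had 10 sites, Notch1 had 7, and Ebf1, Irf8 and Ets1 had 6 each. Rag1, Rag2, Il7r, Gfi1 and Ptcra had 0 assigned, although 1 site lay within 10 kb of Rag2 and went to another gene.

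**Figure D4:**
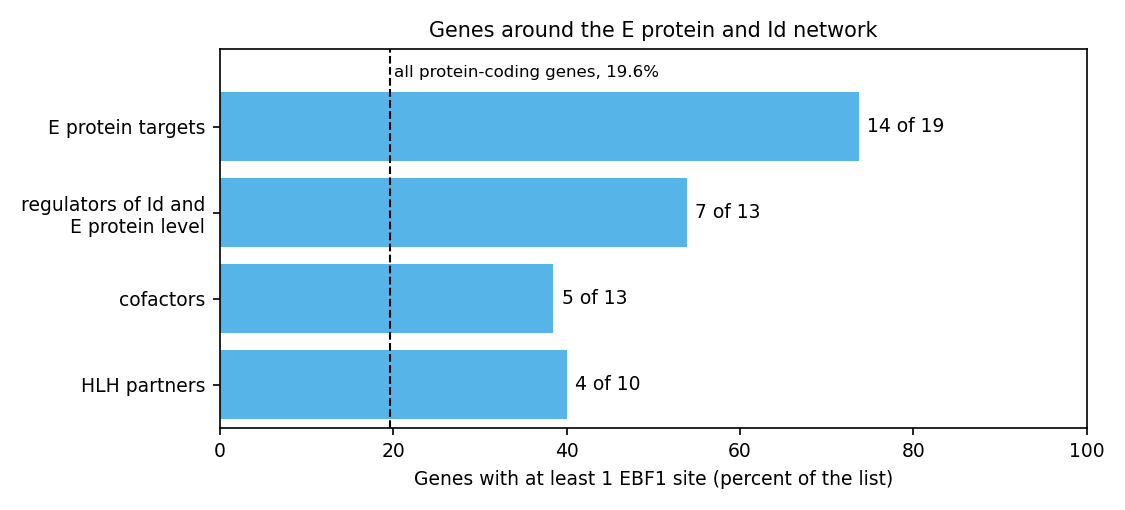
Percent of genes with at least 1 EBF1 site in 4 lists around the E protein and Id genes, as bars from 0, with the number of genes beside each bar. The dashed line marks the 19.6% of all protein-coding genes, and the bars reach 38.5 to 73.7%.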

How the data were processed

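One deposited file was used, the authors' site list for anti-EBF1 ChIP in EBF1 wt cells. Per the file headers it holds chromosome, start, end, name and deepTools group, and the values are positions in bp. Bowtie2, deepTools and SAMtools and the build GRCm38 (mm10) are named, per the submitters' processing notes. For the peak caller, the threshold and the class assignment, nothing is given in the sources used. Gene spans came from RefSeq for GRCm38.p6, with genes of unplaced scaffolds and of chromosomes without a site left out, which kept 49209 of 49997 genes. Strand and promoter sequences came from a RefSeq table of 32851 windows. Positions are 1-based. Where several protein-coding genes held a centre, the shortest took the site, and where none did, the nearest within 100 kb. The calculations used Python 3.11.15 with pandas 2.3.3, and assignment and motif search were checked on planted sites and motifs. Alternatives varied the limit, the competing genes and the motif window. The genes and lists were chosen with earlier results of these data known. Named are the 6 genes, their neighbours, up to 5 genes per list with the most sites, the 3 genes most like Tcf3 and Id2, and other list members by name. One gene of the planned lists is not reported here.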

Additional observations from a re-analysis of the deposited data

How the results depend on the processing

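The 13 sites of the 6 genes were 9 with a 20 kb limit, 14 with no limit, 8 when only sites within 10 kb counted, 23 when every site within 100 kb counted and 8 when all annotated genes competed. With the gene start as reference, 11 sites were assigned to the 4 genes with a start in the table. Id2 went from 4 to 1 under the 20 kb limit and within 10 kb, since its 3 distal sites are 70.7 to 95.1 kb away, and to 1 with all genes competing, since these sites lie in a non-coding gene. With every site within 100 kb, Id1 went from 1 to 7, Tcf3 from 4 to 7 and Id3 from 1 to 2, and Id2 stayed at 4. Tcf12 and Id3 fell to 0 within 10 kb and with all genes competing, and Tcf12 also under the 20 kb limit. Cofactor genes with a site fell from 5 to 3 under the 20 kb limit, because sites beyond it no longer counted. In the central 100 bp of the promoters, 0 of 4 genes held the EBF core and 1, Tcf12, an E-box, against 1 and 3 in the whole windows. Of 73 alternative values, 56 stayed within 1.5 times the count, or within the interval of the share, and 17 did not. The window of 250 bp before the start was chosen after the data were seen. No paired analysis was possible because each group has 1 library. A stricter threshold was not run, since the list has no score. Read depth is not known, so the lack of a site does not show that EBF1 was absent.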
